A study of Rattus norvegicus with 32 samples.

Results

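The mean effect of cannabidiol (CBD) on the nucleus accumbens shell of the rat was taken as the difference between 16 libraries from CBD-treated animals and 16 from vehicle-treated animals, with the cue of the animals held in the model. The members are all 32 libraries of the series, sorted by their treatment labels alone, so no measured value chose them. Within these 32 libraries the account turns on genes that lay on the same side of vehicle under both cues. Of 34322 genes in the count table, 17059 had enough reads to be tested.

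Shocks were paired with either a neutral cue or a lemon odour, and the cue was presented again during anxiety tests, before which CBD or vehicle was given. The 4 groups of 8 libraries each combine a drug (vehicle or CBD) with a cue, the neutral or the anxiety cue, the latter taken here to be the lemon odour. The labels write the neutral-cue groups as having no cue, and they describe all animals as wild type, in brain tissue. All 4 groups had been shocked, including a last shock before the tissue was taken, so none of them represents unshocked tissue, and the labels give no age, sex, strain or CBD dose. The comparison addresses what CBD does to accumbens transcripts whichever cue was present.

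Cannabidiol is a non-intoxicating constituent of cannabis that binds the classical cannabinoid receptors weakly and has been reported to act on serotonin, vanilloid, adenosine, glycine and nuclear receptors and on lipid metabolism. The accumbens shell belongs to the ventral striatum and takes part in motivation and in responses to aversive cues. Most of its neurons are medium spiny neurons, inhibitory projection cells that carry D1 or D2 dopamine receptors and make opioid peptides, and they lie among interneurons, astrocytes, microglia and the oligodendrocytes that wrap axons in myelin.

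Library totals ran from 11.65 M to 24.0 M counts, with a median of 17.89 M. Levels are given as CPM, the counts relative to a library total of 1 M after scaling between libraries. Markers of the labelled region were present in every library: the D1 receptor gene Drd1 lay between 56.6 and 475 CPM and Ppp1r1b, which encodes the striatal phosphoprotein DARPP-32, between 348 and 2685 CPM. Some libraries also held transcripts of other tissues. The liver gene Alb was at 33.2 to 227 CPM in 10 libraries and at no more than 9.66 in the others, and 8 of those 10 were CBD libraries. The fat-cell gene Plin1 was at 5.95 to 42.1 CPM in 10 libraries and at no more than 2.06 in the others, and 8 of those 10 were vehicle libraries. Slc17a6, the glutamate transporter of subcortical neurons, was at 19.6 to 45.7 CPM in 6 libraries, and Slc17a7, that of cortical neurons, reached 938 CPM in CBD neutral-cue library 6. The labels do not say that libraries came from separate rats, so p-values measure only the spread between these libraries. Library numbers follow the order of deposition and pair nothing.

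No gene was called for the mean CBD effect: edgeR's quasi-likelihood test with Benjamini-Hochberg adjustment gave 0 genes (0.0%) past 0.05, with a smallest adjusted p of 0.271. At an unadjusted p under 0.05 there were 1240 genes (7.27% of those tested), of which 539 (3.16%) were higher and 701 (4.11%) lower with CBD. DESeq2 called 13 genes, and limma's voom with quality weights called 0. Without vehicle anxiety-cue library 4, edgeR called 61 genes, 54 higher and 7 lower. The count at an unadjusted p under 0.05 was 798 without vehicle anxiety-cue library 5 and 1918 without CBD anxiety-cue library 2. All genes named from here on are therefore given as values and not as changes.

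The 13 genes called by DESeq2 were genes of liver, epithelium and fat. Higher with CBD were Hpx, Itih2 and Alb, which encode plasma proteins made by the liver, the liver genes Slc25a47 and Hsd17b13, and the epithelial keratin gene Krt8. Lower with CBD were the fat-cell genes Adipoq, Plin1, Lgals12, Adrb3 and Aoc3, together with Tmem182 and the glutamine transporter gene Slc1a5. The 61 genes called by edgeR without 1 library included Alb, Hpx, Plin1 and Adipoq as well.

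The effects under the neutral and the anxiety cue, which share no library, gave unequal counts. With the neutral cue 3852 genes (22.6%) had an unadjusted p under 0.05, and with the anxiety cue 270 (1.58%). Of those with the anxiety cue, 128 (0.75%) were higher and 142 (0.832%) lower, and of those with the neutral cue 1798 (10.5%) and 2054 (12.0%). edgeR's adjusted p passed 0.05 for 0 genes under either cue. The neutral-cue count was 2398 without vehicle neutral-cue library 4, and the anxiety-cue count was 566 without vehicle anxiety-cue library 5. With tissue composition covariates, the mean levels of the myelin, septal, cortical and ependymal markers, the inequality turned, with 523 genes for the neutral and 613 for the anxiety cue. With hepatocyte and adipocyte covariates added to these, the counts were 701 and 590. Of the 17059 genes, 6945 (40.7%) lay on the same side of vehicle under both cues, 3406 (20%) higher and 3539 (20.7%) lower. Across genes, which are not independent replicates, Pearson's r between the effects was 0.108 and Spearman's rho was -0.19.

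The test of the difference between the cues, the interaction, called 0 genes by edgeR with a smallest adjusted p of 0.321, and 2353 (13.8%) had an unadjusted p under 0.05. DESeq2 called 11 genes for the interaction and voom with quality weights called 0. edgeR called 10 without vehicle anxiety-cue library 5, and the unadjusted count was then 3940. That count was 747 with the tissue composition covariates, 837 with all covariates and 1290 without the libraries high in Slc17a6 or Slc17a7. Without the 10 libraries high in Plin1, edgeR called 1475 genes for the interaction. That removal left 3 vehicle neutral-cue libraries, 8 CBD neutral-cue libraries, 5 vehicle anxiety-cue libraries and 6 CBD anxiety-cue libraries.

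Among genes at an unadjusted p under 0.05 for the mean effect, 1075 (6.3%) also had the same sign under both cues, 467 (2.74%) higher and 608 (3.56%) lower. The mean of a pair of effects is largest where they share a sign, so this share is partly set by the way the genes were picked. The count was 663 without vehicle anxiety-cue library 5 and 1757 without CBD anxiety-cue library 2. In the first of these the balance turned, with 353 higher and 310 lower, and in the second 699 were higher and 1058 lower. With hepatocyte and adipocyte covariates 309 were higher and 278 lower. A narrower set had an unadjusted p under 0.05 under each cue separately: 13 genes (0.0762%) shared a sign, 3 higher (0.0176%) and 10 lower (0.0586%), while 26 genes (0.152%) had opposite signs. Unrelated effects would give the product of the within-cue shares, 10.5% and 0.75% for higher genes and 12.0% and 0.832% for lower genes. Both same-sign shares lay below that product, and the opposite-sign share likewise lay below the sum of the products of opposite directions. The same-sign count of 13 became 20 without vehicle neutral-cue library 2, 53, 8 and 30 without vehicle anxiety-cue libraries 4, 5 and 8, and 45, 8, 8 and 21 without CBD anxiety-cue libraries 2, 4, 5 and 7. The opposite-sign count ranged from 14 without vehicle anxiety-cue library 7 to 212 without vehicle anxiety-cue library 5.

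**Figure D1:**
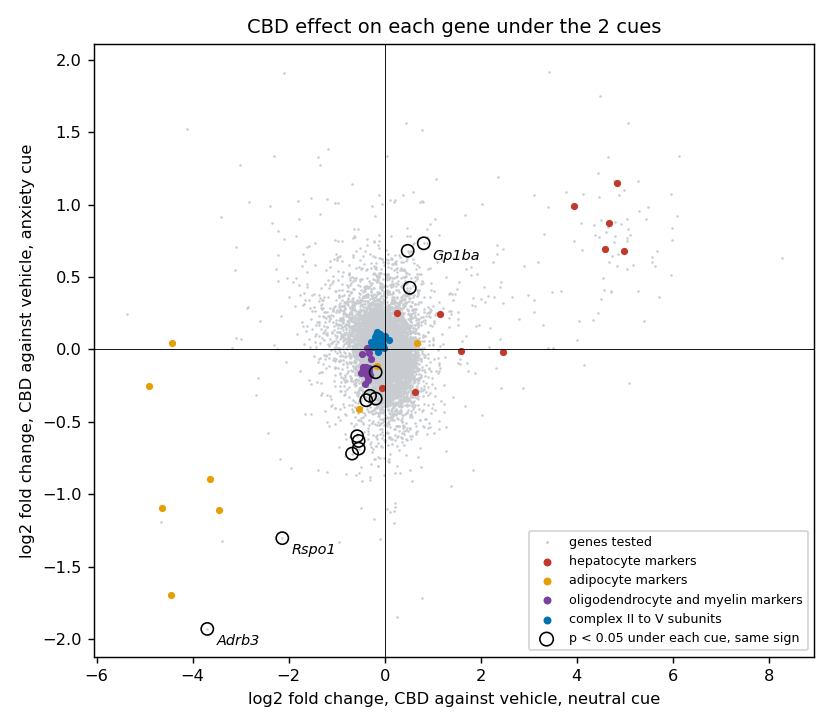
Each point is a tested gene, with the log2 fold change of CBD against vehicle under the neutral cue on the horizontal axis and under the anxiety cue on the vertical axis; colours mark 4 marker or subunit lists and rings the 13 genes with an unadjusted p under 0.05 and the same sign under each cue. The hepatocyte and adipocyte markers with the largest changes lie far out on the horizontal axis, the myelin markers lie mostly below 0 on both axes, and the complex II to V subunits lie left of 0 with the neutral cue and mostly above 0 with the anxiety cue.

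The 13 same-sign genes were Stard5, Gp1ba and Pik3c2g, higher with CBD, and Zfp438, Ankrd40, Npc1, Mmp28, Procr, Apol3, Ins2, Rspo1, Adrb3 and LOC108351176, lower with CBD. Of these, Ins2, Rspo1 and LOC108351176 fall outside the rule for named genes and were named after their values were seen. Over the 32 removals of a single library, Stard5 and Ankrd40 met the rule in 31, and Zfp438, Mmp28 and Procr in 27. Npc1 met it in 22 and Pik3c2g in 14. With the mean levels of the hepatocyte and adipocyte markers as covariates, 4 of the 13 met the rule (Ankrd40, Gp1ba, Ins2 and Zfp438), and without the 10 libraries high in Alb 0 did.

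Zfp438, which encodes a zinc finger protein, had the smallest p for the mean effect after Tmem182, a gene described with the fat-cell genes. Its level ranged from 3.47 to 3.93 CPM (median 3.79) in the vehicle libraries and from 2.76 to 3.6 CPM (median 3.41) in the CBD libraries of the neutral cue. With the anxiety cue it ranged from 3.46 to 4.28 CPM (median 4.03) in vehicle and from 2.74 to 3.87 CPM (median 3.06) in CBD libraries. All 8 CBD libraries lay below the vehicle median under each cue, although the ranges overlapped. Here and for the genes below, the picking by p used these same libraries, so this position is partly set by it. The mean log2 fold change of Zfp438 was -0.27 (SE 0.059, edgeR adjusted p = 0.271), with -0.19 under the neutral and -0.34 under the anxiety cue. The effect on Zfp438 was between -0.36 and -0.23 when libraries high in Alb, Plin1, Slc17a6 or Slc17a7 were left out or marker levels were added as covariates, and between -0.29 and -0.25 over the single removals. These values rest on 41 to 90 reads per library.

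Ankrd40, which encodes an ankyrin repeat protein, gave the same picture at a higher level. It ranged from 127 to 188 CPM (median 162) in vehicle and from 126 to 158 CPM (median 145) in CBD libraries of the neutral cue. With the anxiety cue the ranges were 142 to 184 CPM (median 156) and 127 to 150 CPM (median 142). All 8 CBD libraries lay below the vehicle median under each cue, and the ranges overlapped. For Ankrd40 the mean log2 fold change was -0.17 (SE 0.046, edgeR adjusted p = 0.271), and -0.11 with the tissue composition covariates.

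Ppp1r3c encodes a subunit that brings protein phosphatase 1 to glycogen and favours glycogen storage. It ranged from 30.4 to 41.9 CPM (median 37.0) in vehicle and from 26.8 to 34.1 CPM (median 31.3) in CBD libraries of the neutral cue. The anxiety-cue ranges were 27.9 to 36.3 CPM (median 32.4) and 25.5 to 31.8 CPM (median 29.1). Again all 8 CBD libraries lay below the vehicle median under each cue, with overlapping ranges. For Ppp1r3c it came to -0.20 (SE 0.048, edgeR adjusted p = 0.271). It was -0.26 under the neutral cue and -0.13 under the anxiety cue, where its unadjusted p was above 0.05, so it is not among the 13.

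Genes of cholesterol handling appeared on both sides. Npc1, the lysosomal transporter that releases cholesterol from endocytosed lipoproteins, ranged from 50.6 to 121 CPM (median 95.6) in vehicle and from 55.4 to 83.4 CPM (median 76.4) in CBD libraries of the neutral cue. With the anxiety cue its ranges were 73.9 to 127 CPM (median 86.0) and 64.5 to 94.2 CPM (median 69.7). Of the CBD libraries, 8 of 8 with the neutral cue and 6 of 8 with the anxiety cue lay below the vehicle median of Npc1. The mean effect on Npc1 was -0.31 (SE 0.098, edgeR adjusted p = 0.418). With the hepatocyte, adipocyte and composition covariates all together it was -0.083.

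Stard5, a lipid-binding protein of the START family, lay on the other side. It ranged from 3.63 to 7.0 CPM (median 5.81) in vehicle and from 5.43 to 14.7 CPM (median 7.45) in CBD libraries of the neutral cue. The anxiety-cue ranges were 3.71 to 7.78 CPM (median 6.07) and 5.12 to 9.42 CPM (median 8.4). Under each cue 6 of 8 CBD libraries lay above the vehicle median. CBD against vehicle, Stard5 was at 0.47 (SE 0.127, edgeR adjusted p = 0.271), and it was 0.31 without the libraries high in Alb and 0.23 with all marker covariates. The 22 tested genes of cholesterol synthesis, the pathway that makes the lipid, had a median of -0.051, and 0 of them had an unadjusted p under 0.05 in either direction, Pmvk, a kinase of the mevalonate pathway, being lowest in p at -0.12 (edgeR adjusted p = 0.701). That median was -0.0090 and -0.029 without vehicle neutral-cue libraries 4 and 8, and -0.090 without CBD neutral-cue library 6.

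**Figure D2:**
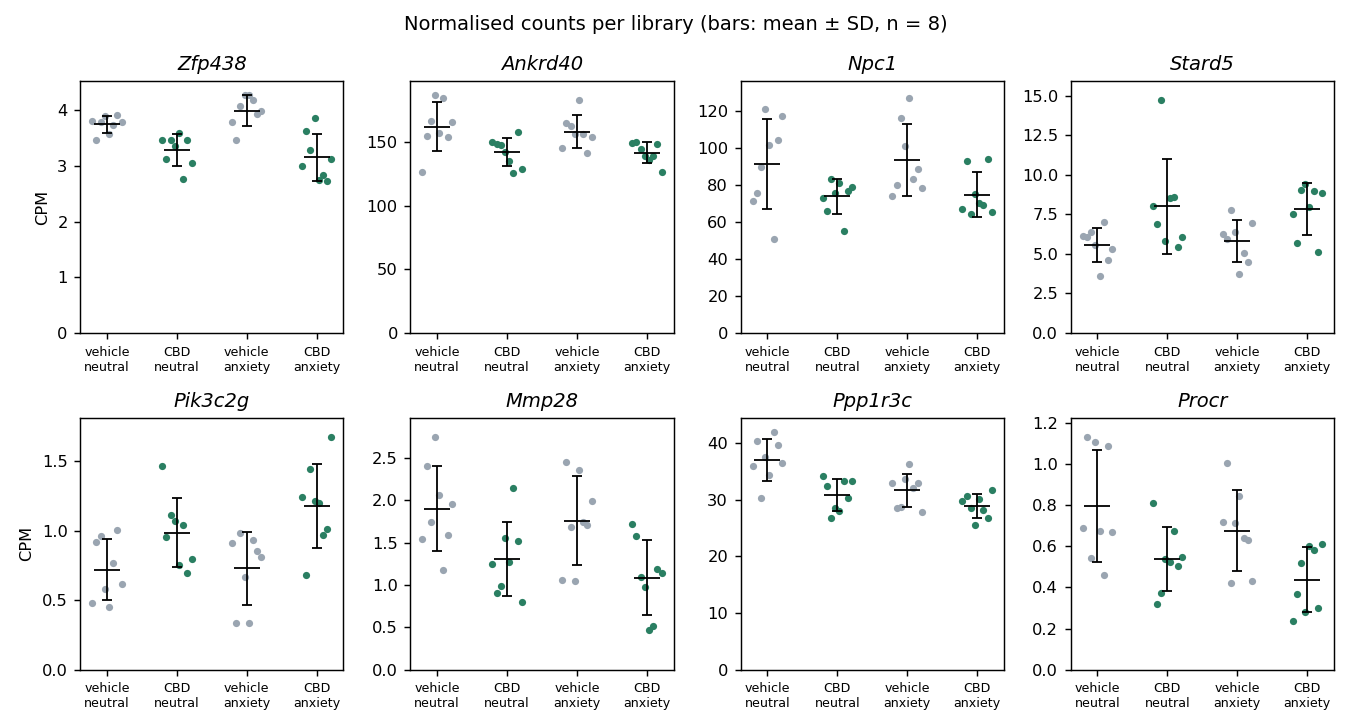
CPM of 8 genes in each library (points), with the mean and SD of each group of 8 (bars). All 8 CBD libraries lie below the vehicle median under each cue for Zfp438, Ankrd40 and Ppp1r3c, while for Stard5 6 of 8 lie above it. The ranges of the groups overlap in every panel. The genes were picked by p in these same libraries, which partly sets these positions.

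The other same-sign genes were scarce transcripts. Pik3c2g, a class II phosphoinositide kinase, had medians of 0.69 CPM in vehicle and 0.999 CPM in CBD libraries of the neutral cue, and of 0.833 and 1.21 CPM with the anxiety cue. Its mean log2 fold change was 0.58 (SE 0.161, edgeR adjusted p = 0.272), and 8 of 8 and 7 of 8 CBD libraries lay above the vehicle median. Pik3c2g had 6 to 28 reads per library. Of the 10 libraries highest in Pik3c2g, 6 were high in Alb, and its effect was 0.33 with all covariates. Gp1ba, a platelet adhesion receptor subunit, was at 0.77 (SE 0.234, edgeR adjusted p = 0.367) on 1 to 16 reads per library.

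Among the scarce genes that were lower, Mmp28 encodes a secreted metalloproteinase. Its medians were 1.85 CPM in vehicle and 1.26 CPM in CBD libraries of the neutral cue, and 1.73 and 1.12 CPM with the anxiety cue. The log2 fold change of Mmp28 was -0.61 (SE 0.172, edgeR adjusted p = 0.272), with 7 of 8 and 8 of 8 CBD libraries below the vehicle median. It was -0.30 with the hepatocyte and adipocyte markers as covariates. Procr, the endothelial receptor of protein C, was at -0.59 (SE 0.173, edgeR adjusted p = 0.324) and Apol3, an apolipoprotein L, at -0.59 (SE 0.178, edgeR adjusted p = 0.367). Procr was counted at 5 to 23 reads per library. Rspo1, which encodes a secreted enhancer of Wnt signalling, was at -1.72 on average.

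The 26 opposite-sign genes, given as a description after their values were seen, included immune and matrix genes. Cd74, the invariant chain of MHC class II, was at -0.98 with the neutral and 1.01 with the anxiety cue, and RT1-Ba, a rat MHC class II gene, at -1.34 and 1.27. Postn, which encodes the matrix protein periostin, was at -2.11 and 1.91. Ucp2, a mitochondrial carrier, was at -0.60 and 0.33, with an adjusted interaction p of 0.321 by edgeR. The mean effects of these 4 lay between -0.14 for Ucp2 and 0.017 for Cd74.

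The 12 higher genes with the smallest p and the same sign under both cues were Upp2, Cyp2a3, Slc25a47, Hsd17b13, Hpx, F9, Mat1a, Uox, Fbp1, Azgp1, A1cf and Alb, most of them genes that the liver expresses. For each of the 12, at least 9 of its 10 highest libraries were among the 10 libraries high in Alb. For Alb itself this was set in advance, since its level defined those libraries. Hpx, the plasma heme carrier, had medians of 1.71 CPM in vehicle and 32.5 CPM in CBD libraries of the neutral cue, where the highest CBD library reached 321 CPM and the lowest was at 0.55. With the anxiety cue its medians were 2.62 and 17.6 CPM. Over all libraries Hpx was at 3.13 (SE 0.773, edgeR adjusted p = 0.271), and it was -0.15 without the libraries high in Alb and -0.61 without those high in Alb or Plin1. Alb was at 2.47 (SE 0.64, edgeR adjusted p = 0.271) over all libraries and at 0.12 without the 10, a value partly set by choosing them by Alb. The effect on Hpx was larger with the neutral cue (5.29) than with the anxiety cue (0.96), and its adjusted interaction p by edgeR was 0.321.

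The libraries high in Alb numbered 0 of 8 in vehicle and 4 of 8 in CBD with the neutral cue, and 2 of 8 and 4 of 8 with the anxiety cue. Of 15 hepatocyte markers listed, 12 were tested, with a list median of 1.0. Above 0 lay 10, and 6 of those had an unadjusted p under 0.05 (3.16% of all genes). Below 0 lay 2, and 1 of those had an unadjusted p under 0.05 (4.11% of all genes). Without CBD neutral-cue library 3 the median was 0.49, and without the libraries high in Alb or Plin1 it was -0.21. Summed over the 15 markers, the level ran from 321 to 535 CPM in vehicle and from 241 to 1458 CPM in CBD with the neutral cue, and from 319 to 715 and from 305 to 708 CPM with the anxiety cue. Tf, the transferrin gene that oligodendrocytes also express, was the largest contributor to these sums, with a mean of 345 CPM. Ahsg, a liver glycoprotein gene, was at 0 in all libraries of every group except vehicle with the anxiety cue. The part of liver transcripts in other values was not tested beyond the removals and covariates given.

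The 12 lower genes of the same rule were Adipoq, Tmem182, Lgals12, Adrb3, Plin1, Aoc3, Slc1a5, Cav1, Zfp438, Ppp1r3c, Mfng and Pkp1, the first 6 of which are expressed by fat cells or muscle. Adipoq, the hormone adiponectin, had medians of 4.57 CPM in vehicle and 0.268 CPM in CBD libraries of the neutral cue, with a highest vehicle library of 20.9 CPM, and of 0.494 and 0.245 CPM with the anxiety cue. Its mean log2 fold change was -3.08 (SE 0.704, edgeR adjusted p = 0.271). Without the libraries high in Plin1 it was -0.41, and without those high in Alb or Plin1 it was 0.32. Plin1, which coats fat droplets, was at -2.87 (SE 0.678, edgeR adjusted p = 0.271) and at -0.29 without its own 10 high libraries. Choosing those libraries by Plin1 partly sets the latter value. Tmem182, which encodes a membrane protein of muscle and fat, was at -2.36 (edgeR adjusted p = 0.271), and 9 of its 10 highest libraries were high in Plin1. Adrb3, the adrenergic receptor of fat cells, was at -2.81 and at -0.032 with the hepatocyte and adipocyte covariates.

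Slc1a5, a glutamine transporter, and Cav1, the caveolin of fat and endothelial cells, also had all of their 10 highest libraries among those high in Plin1. Slc1a5 was at -0.99 (SE 0.235, edgeR adjusted p = 0.271) and at -0.25 without the libraries high in Plin1, while Cav1 was at -0.46 (SE 0.114, edgeR adjusted p = 0.271) and at -0.19. Pkp1, a protein of desmosomes, was at -0.57 (SE 0.146, edgeR adjusted p = 0.271), and 4 of its 10 highest libraries were high in Plin1. Mfng, which modifies Notch receptors, was at -0.61 on average, from -1.16 with the neutral and -0.056 with the anxiety cue. Libraries high in Plin1 numbered 5 of 8 in vehicle and 0 of 8 in CBD with the neutral cue, and 3 of 8 and 2 of 8 with the anxiety cue. Of 12 adipocyte markers, 9 were tested, 8 lay below 0 and 6 of those had an unadjusted p under 0.05 (4.11% of all genes), with a median of -2.27. Their summed level ran from 49.6 to 247 CPM in vehicle and from 96.8 to 202 CPM in CBD with the neutral cue, and from 121 to 238 and from 70.0 to 209 CPM with the anxiety cue. Lpl, which the brain also expresses, made up the largest part with a mean of 123 CPM, and in no group was a marker at 0 in all libraries.

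**Figure D3:**
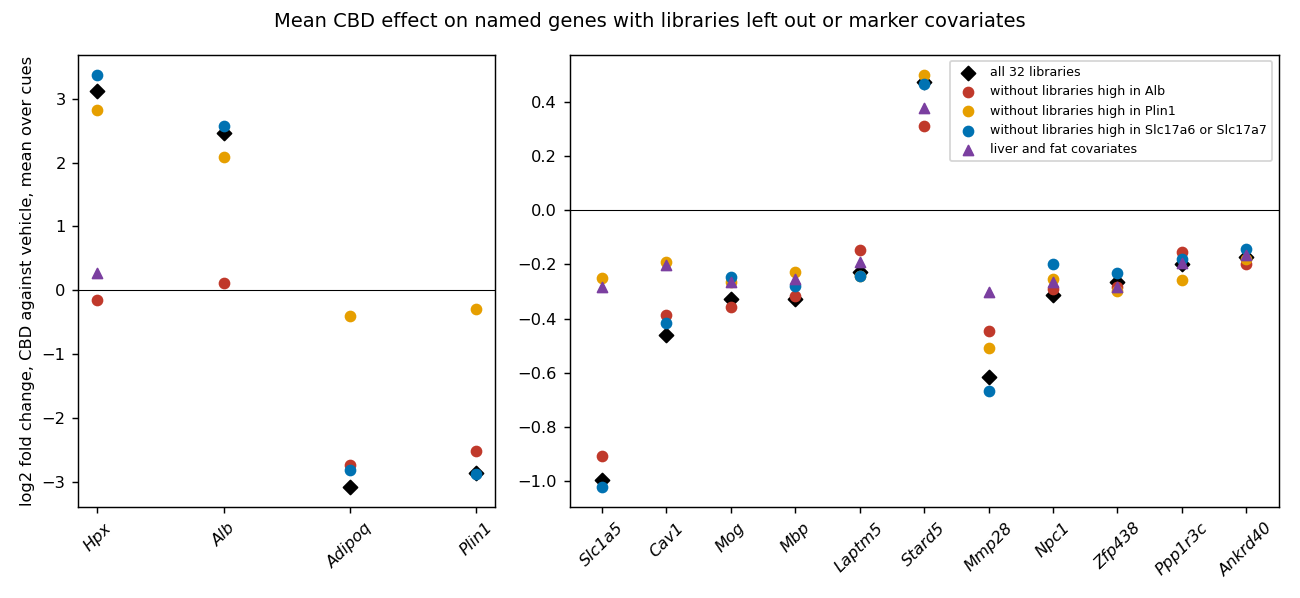
Mean log2 fold change of CBD against vehicle for 4 liver and fat genes (left) and 11 other named genes (right) with all 32 libraries (diamonds), with libraries high in a marker left out (circles) and with hepatocyte and adipocyte markers as covariates (triangles; none is drawn for genes of those marker lists). Hpx moves from 3.13 to -0.15 without the libraries high in Alb and Adipoq from -3.08 to -0.41 without those high in Plin1, whereas Zfp438, Ppp1r3c and Ankrd40 stay below 0 in each setting drawn.

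The myelin genes lay on 1 side. All 20 oligodendrocyte and myelin markers tested (of 21 listed) lay below 0 for the mean effect, 15 of them at an unadjusted p under 0.05, beside 4.11% of all genes that were lower by that measure. Their median log2 fold change was -0.26, beside 0.00051 over all genes, with -0.39 under the neutral and -0.14 under the anxiety cue. The markers were counted in the same libraries and are not independent replicates. Their mean level had an SD between libraries within groups of 0.285. Lower under both cues were 18 of the 20. With the neutral cue 19 of the 20 had an unadjusted p under 0.05 and were lower (12.0% of all genes), and with the anxiety cue 0 were (0.832%). In bulk tissue, fewer cells of a type and less RNA per cell cannot be told apart. The median stayed between -0.30 and -0.21 over the single removals and between -0.29 and -0.17 in the 12 other settings that give it a value, the weakest being without the libraries high in Slc17a6 or Slc17a7.

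Mbp, myelin basic protein, ranged from 3214 to 4716 CPM (median 3569) in vehicle and from 1472 to 3351 CPM (median 2706) in CBD libraries of the neutral cue. With the anxiety cue its ranges were 2229 to 4599 CPM (median 3132) and 1845 to 3870 CPM (median 2698). CBD libraries below the vehicle median numbered 8 of 8 and 6 of 8. Over both cues Mbp was at -0.33 (SE 0.109, edgeR adjusted p = 0.503). Mog, a glycoprotein of the outer myelin surface, was at -0.33 (SE 0.106, edgeR adjusted p = 0.467), and Cnp, a myelin enzyme, at -0.28. The summed level of the myelin markers ran from 8680 to 12853 CPM in vehicle and from 4512 to 9279 CPM in CBD with the neutral cue, and from 6676 to 13380 and from 5848 to 11218 CPM with the anxiety cue.

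Precursors of oligodendrocytes gave a similar sign but mostly with the neutral cue. All 11 precursor markers tested lay below 0, 5 of them at an unadjusted p under 0.05 (4.11% of all genes), with a median of -0.15 (neutral cue -0.26, anxiety cue -0.015). Olig2, the transcription factor of the lineage, had medians of 61.4 CPM in vehicle and 45.5 CPM in CBD libraries of the neutral cue, against 46.4 and 50.8 CPM with the anxiety cue. The neutral-cue groups did not overlap (54.4 to 78.1 against 28.6 to 53.0 CPM), as was so, in this direction, for 13 genes (0.0762%) in all, while the anxiety-cue groups overlapped widely. Olig2 was at -0.27 (SE 0.091, edgeR adjusted p = 0.528), at -0.52 with the neutral and -0.015 with the anxiety cue. The list median turned to 0.0023 with the tissue composition covariates and to 0.018 with all covariates.

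The microglial list had a median below 0. Of 19 markers tested, 15 lay below 0 and 6 of those had an unadjusted p under 0.05 (4.11% of all genes), and 13 were lower under both cues (20.7% of all genes). The median was -0.10 (neutral cue -0.21, anxiety cue -0.076), and it was below 0 in all 46 alternatives, being -0.060 without vehicle anxiety-cue library 5. Laptm5, a lysosomal protein of immune cells, ranged from 25.9 to 33.1 CPM (median 28.3) in vehicle and from 19.3 to 25.9 CPM (median 23.4) in CBD libraries of the neutral cue. With the anxiety cue its ranges were 18.2 to 32.3 CPM (median 23.6) and 18.5 to 28.7 CPM (median 22.3). The neutral-cue ranges met only at their ends, while the anxiety-cue ranges overlapped widely. Laptm5 was at -0.23 (SE 0.070, edgeR adjusted p = 0.37). The complement gene C1qa was at -0.26 (SE 0.090, edgeR adjusted p = 0.529) and the purinergic receptor gene P2ry12 at -0.23.

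Of the other non-neuronal lists, the 20 astrocyte markers had a median of -0.064, with Gfap, the glial filament gene, at -0.53 (SE 0.203, edgeR adjusted p = 0.626). That median was 0.012 with all covariates and -0.098 without vehicle neutral-cue library 1. The 21 endothelial and mural markers had a median of -0.088, nearly the same under the neutral (-0.069) and the anxiety cue (-0.099), with 14 of them lower under both cues and 0 at an unadjusted p under 0.05 for the mean. It turned to 0.062 without the libraries high in Plin1, and was -0.054 and -0.058 without vehicle neutral-cue library 5 and vehicle anxiety-cue library 4. Vtn, the vitronectin gene of pericytes, was at 0.33 (edgeR adjusted p = 0.693), and at 0.00088 without the libraries high in Alb. Of the 10 libraries highest in Vtn, 7 were high in Alb. The 9 choroid plexus and ependymal markers had a median of 0.037, which fell on either side of 0 as single libraries were removed.

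**Figure D4:**
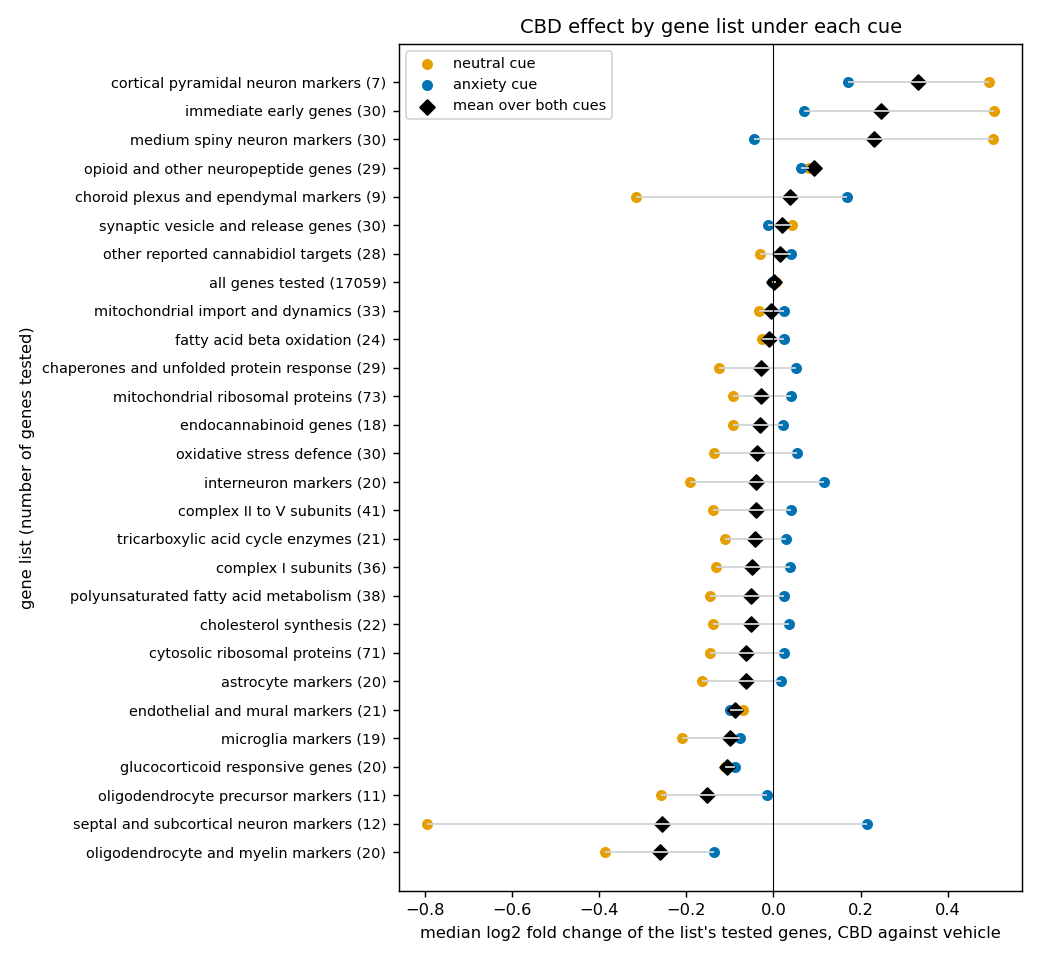
Median log2 fold change of CBD against vehicle over the tested genes of each list (number in brackets) for the neutral cue, the anxiety cue and their mean; the hepatocyte (1.0) and adipocyte (-2.27) lists lie outside the axis and are not drawn. Myelin, microglia and endothelial markers lie below 0 under both cues, immediate early genes above 0 under both, and the respiratory and ribosomal lists on opposite sides.

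The immediate early and medium spiny neuron lists had medians above 0. Immediate early genes, which neurons transcribe within minutes of activity, had a median of 0.25 over 30 genes, with 27 above 0 and 18 higher under both cues, and 1 of them, Fosl2, at an unadjusted p under 0.05 (3.16% of all genes). The median was 0.51 with the neutral and 0.070 with the anxiety cue. It was 0.14 without CBD neutral-cue library 6, the library high in Slc17a7, and -0.022 with the tissue composition covariates. Egr1, an activity-induced transcription factor, ranged from 25.4 to 88.5 CPM (median 66.0) in vehicle and from 66.1 to 183 CPM (median 80.8) in CBD libraries of the neutral cue, against 37.0 to 112 (median 77.0) and 38.0 to 109 CPM (median 85.3) with the anxiety cue. Egr1 was at 0.36 (SE 0.182, edgeR adjusted p = 0.698). Fosl2, a member of the Fos family, was at 0.45 (SE 0.182, edgeR adjusted p = 0.655), Arc at 0.45 and Fos itself at 0.10 (edgeR adjusted p = 0.89). Without CBD neutral-cue library 6 Arc was at 0.28 and Fos at -0.082, and with the tissue composition covariates Arc was at 0.0032.

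The markers of medium spiny neurons had a median of 0.23, with 29 of 30 above 0 and 0 at an unadjusted p under 0.05. The value came from the neutral cue (0.51), the anxiety cue being at -0.045. Of the 30 markers, 20 had opposite signs under the cues, beside 10114 of all 17059 genes. The median was 0.084 without the libraries high in Slc17a6 or Slc17a7 and -0.035 with all covariates. Drd1 ranged from 56.6 to 362 CPM (median 258) in vehicle and from 278 to 394 CPM (median 338) in CBD libraries of the neutral cue, and from 94.8 to 439 (median 340) and 132 to 475 CPM (median 319) with the anxiety cue. Its mean log2 fold change was 0.25 (SE 0.205, edgeR adjusted p = 0.751), that of the D2 receptor gene Drd2 0.25 and that of the adenosine receptor gene Adora2a 0.21. Rxrg, a retinoid receptor of striatal neurons, was at 0.30 (edgeR adjusted p = 0.699). The summed level of the 30 markers ran from 3558 to 14962 CPM in vehicle and from 11176 to 15541 CPM in CBD with the neutral cue.

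Neuropeptide genes had a median of 0.094 over 29 genes, 14 of them higher under both cues, which was 0.027 without CBD neutral-cue library 6, 0.044 without vehicle neutral-cue library 4 and 0.034 without CBD anxiety-cue library 8. The opioid precursor genes Pdyn and Penk were at 0.29 (edgeR adjusted p = 0.717) and 0.094 (edgeR adjusted p = 0.906). Scg2, a granin of secretory granules, was at -0.056 with the neutral and 0.30 with the anxiety cue. Cck, a peptide of cortical and other neurons, was at 1.17 (edgeR adjusted p = 0.584) with all libraries and 0.19 without CBD neutral-cue library 6, in which it reached 267 CPM.

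Lists of neighbouring neurons moved with single libraries. The 7 cortical pyramidal markers tested (of 14) had a median of 0.33, which was 0.044 without CBD neutral-cue library 6. Slc17a7 was at 3.12 (SE 0.823, edgeR adjusted p = 0.271) with all libraries and 1.41 without that library. The 12 septal and subcortical markers had a median of -0.26, at -0.80 with the neutral and 0.21 with the anxiety cue. That median was -0.12 without vehicle anxiety-cue library 5, -0.15 without vehicle neutral-cue library 4 and 0.0039 without the libraries high in Slc17a6 or Slc17a7. The summed septal level ran from 278 to 514 CPM in vehicle and from 241 to 302 CPM in CBD with the neutral cue, and from 227 to 383 and from 248 to 386 CPM with the anxiety cue. The part of these libraries in the neuronal and glial medians was not tested beyond the removals and covariates given.

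The 20 interneuron markers had a median of -0.040, which ranged from -0.10 to -0.026 as single libraries were removed. It was -0.19 with the neutral and 0.12 with the anxiety cue. Opposite signs under the cues were found in 14 of the 20, beside 10114 of all 17059 genes. For the mean effect 13 lay below 0 and 7 above. At an unadjusted p under 0.05, 4 were lower and 1, Cck, was higher (4.11% and 3.16% of all genes). Th, the gene of the rate-limiting enzyme of dopamine synthesis, was at -0.76 (SE 0.222, edgeR adjusted p = 0.324) on 2 to 27 reads per library and Pvalb at -0.63 (edgeR adjusted p = 0.655). The 30 synaptic vesicle genes had a median of 0.019, which was -0.023 without CBD neutral-cue library 6 and turned sign in 4 of 46 alternatives. At an unadjusted p under 0.05, 3 of the vesicle genes were lower and 1, Sv2b, was higher (4.11% and 3.16% of all genes). Sv2b, a vesicle glycoprotein, was at 0.60 (edgeR adjusted p = 0.656) and at 0.25 without CBD neutral-cue library 6.

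**Figure D5:**
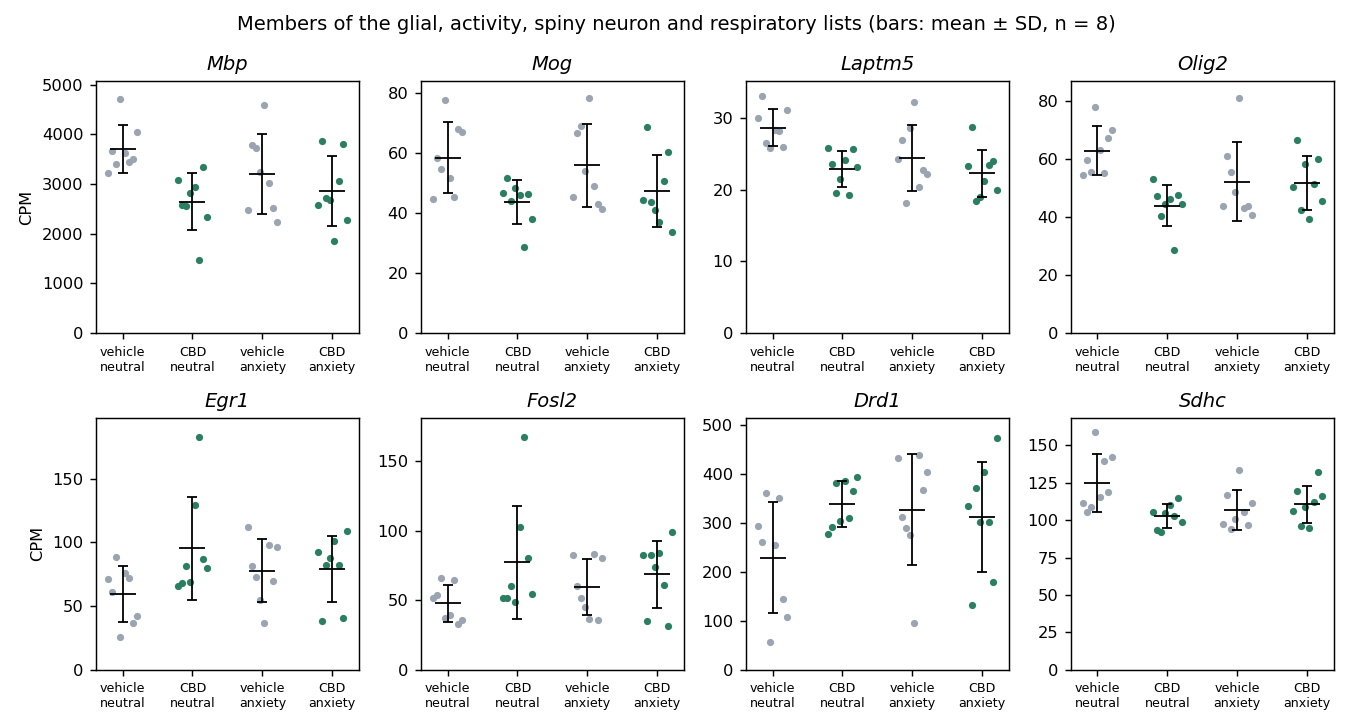
CPM per library (points) with mean and SD per group of 8 (bars) for 3 myelin and microglial genes, the lineage factor Olig2, 2 immediate early genes, Drd1 and the complex II gene Sdhc. For Mbp, Mog and Laptm5 8 of 8 CBD libraries lie below the vehicle median with the neutral cue and 6 of 8 with the anxiety cue, and Egr1 and Fosl2 are highest in CBD neutral-cue library 6 at 183 and 168 CPM.

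Genes of mitochondrial respiration had mean effects near 0 that joined opposite signs. The 36 complex I subunits had a median of -0.049, with -0.13 under the neutral and 0.037 under the anxiety cue, and 30 of the 36 had opposite signs. For the 41 subunits of complexes II to V the median was -0.040 (neutral cue -0.14, anxiety cue 0.041), 39 of them with opposite signs, beside 59.3% of all genes. For the mean effect, 2 of the 36 complex I subunits (Ndufa12 and Ndufb8) and 0 of the others had an unadjusted p under 0.05. Both were lower, beside 4.11% of all genes. The medians were -0.022 and -0.011 without vehicle neutral-cue library 6. Sdhc, a complex II membrane subunit, had medians of 117 CPM in vehicle and 104 CPM in CBD libraries of the neutral cue, against 103 and 111 CPM with the anxiety cue, and its log2 fold changes were -0.28 and 0.049. Of the other respiratory genes, Ndufa8 was at -0.14 (edgeR adjusted p = 0.698) and Cox4i1 at -0.082 (edgeR adjusted p = 0.723).

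Other lists of mitochondrial and stress genes had small medians, with opposite signs in 11 of the 21 tricarboxylic acid cycle enzymes, 15 of the 24 beta oxidation genes and 19 of the 30 oxidative stress genes, beside 59.3% of all genes. The 21 tricarboxylic acid cycle enzymes had a median of -0.042, the 33 genes of mitochondrial import and dynamics -0.0058, the 24 of fatty acid beta oxidation -0.010, the 29 chaperones and unfolded protein response genes -0.028 and the 30 of oxidative stress defence -0.038. As single libraries were removed, the medians of these lists lay between -0.061 and 0.0058. In these lists Pink1, a kinase that marks damaged mitochondria, was at -0.16 (edgeR adjusted p = 0.685), and Gpx3, a secreted glutathione peroxidase, at -0.70 (edgeR adjusted p = 0.631), with -1.71 under the neutral and 0.31 under the anxiety cue. The 73 mitochondrial ribosomal proteins had a median of -0.028 and the 71 cytosolic ones -0.063. Of the cytosolic ribosomal genes 69 lay below 0, 0 had an unadjusted p under 0.05, and the median was -0.0020 without vehicle neutral-cue library 6. Reads of ribosomal protein genes can be shared with near-identical copies, and no source used here gives the strand of counting, so these and overlapping genes are uncertain.

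Among lipid genes, the median of the 38 that handle polyunsaturated fatty acids was -0.051, below 0 in all 46 alternatives, and 7 had an unadjusted p under 0.05, all lower (4.11% of all genes). Ptges, a prostaglandin E synthase, had medians of 0.821 CPM in vehicle and 0.35 CPM in CBD libraries of the neutral cue, and of 0.669 and 0.366 CPM with the anxiety cue. Ptges was at -1.11 (SE 0.312, edgeR adjusted p = 0.272), on 1 to 48 reads per library. Of its 10 highest libraries 8 were high in Plin1, and it was at -0.50 with all covariates. Ptgds, the prostaglandin D synthase of oligodendrocytes and meninges, was at -0.34 (SE 0.109, edgeR adjusted p = 0.44), and Scd2, the brain's stearoyl-CoA desaturase, at -0.16 (SE 0.057, edgeR adjusted p = 0.56). The desaturase gene Fads1 was at -0.022 (edgeR adjusted p = 0.933).

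Genes through which CBD has been reported to act lay on both sides of 0. The 18 endocannabinoid genes had a median of -0.030, 3 of them at an unadjusted p under 0.05 and lower (Ptpn22, Abhd4 and Naaa), beside 4.11% of all genes, and 13 had opposite signs under the cues, beside 59.3%. That median was -0.0076 and -0.053 without CBD neutral-cue libraries 5 and 6. The 28 other reported targets had a median of 0.015, 2 of them lower at an unadjusted p under 0.05 (Pparg and Glra1), beside the same 4.11%, and the sign of that median turned in 3 of 46 alternatives. Ptpn22, a phosphatase of immune cells that has been reported to act in anandamide synthesis, was at -0.71 (SE 0.244, edgeR adjusted p = 0.528), with -0.81 under the neutral and -0.62 under the anxiety cue. Cnr1, the CB1 receptor gene, ranged from 39.2 to 245 CPM (median 72.3) in vehicle and from 41.8 to 284 CPM (median 56.8) in CBD libraries of the neutral cue, and from 41.9 to 111 (median 51.9) and 51.7 to 115 CPM (median 67.8) with the anxiety cue. Over both cues Cnr1 was at 0.060 (SE 0.26, edgeR adjusted p = 0.954), and it was -0.25 without CBD neutral-cue library 6.

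Of the enzymes that break down endocannabinoids, Faah was at -0.025 (edgeR adjusted p = 0.908) and Mgll at 0.19 (edgeR adjusted p = 0.71). The serotonin receptor gene Htr1a was at -0.59 (edgeR adjusted p = 0.706) and Gpr55 at 0.20 (edgeR adjusted p = 0.87). For Htr1a the cues had opposite signs, -1.45 with the neutral and 0.26 with the anxiety cue. Without the libraries high in Alb or Plin1 the mean effect on Htr1a was 0.18. Pparg, a nuclear receptor of fat cells, was at -1.39 (edgeR adjusted p = 0.626), and 9 of its 10 highest libraries were high in Plin1, without which it was at 0.58. Trpv1, the capsaicin receptor gene, was at 0.27 (edgeR adjusted p = 0.693). The 20 glucocorticoid responsive genes had a median of -0.11, with Tsc22d3, a glucocorticoid-induced leucine zipper protein, at -0.20 (SE 0.080, edgeR adjusted p = 0.648), and that median was -0.068 without vehicle anxiety-cue library 3.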

How the data were processed

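PolyA-selected RNA of 32 libraries was sequenced, and the values are whole-number counts of reads per gene as deposited by the authors. The submitters' processing notes name STAR, featureCounts and DESeq2, whose versions are not given in the sources used, and the builds mRatBN7.2 and Rnor_6.0 without a role. Each of the 32 value columns was matched to its library through the title, leaving 0 columns unused. Replicates were checked for duplicates: among 112 pairs within groups 0 were identical, and chi-square per degree of freedom lay between 5.24 and 102.7 (genes with 10 or more counts).

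The test used edgeR 4.0.16 under R 4.3.3. filterByExpr by group left out 17263 genes with low counts, TMM scaled the libraries, and a quasi-likelihood model with a separate mean for each of the 4 groups was fitted. The contrast is the average of the CBD effects under both cues, with Benjamini-Hochberg adjustment across the 17059 tested genes. CPM are counts scaled by TMM and relative to a library total of 1 M. Where a gene is said to be at a value, the value is its log2 fold change, CBD against vehicle. Libraries high in a marker had, in CPM of the library total without TMM, at least 20 for Alb, at least 4 for Plin1, and at least 20 for Slc17a6 or 100 for Slc17a7.

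Genes named by rule are the 12 higher and 12 lower with the smallest p and the same sign under both cues, excluding locus numbers, up to 6 higher and 6 lower with an unadjusted p under 0.05 under each cue, the member of each of 29 lists with the smallest p, and a preset group such as Cnr1, Drd1 and Mbp. Other members named stand among those with a small p in their list and were chosen after their values were seen. The comparison and the lists were chosen with earlier results of these data known. No test was made of a list.

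Alternatives were DESeq2 size factors, DESeq2 1.42.0, voom with quality weights in limma 3.58.1, other filters, robust estimation, an additive model, marker covariates, removal of libraries high in a marker, and removal of each library. Covariates of all lists together and removal of libraries high in Alb or Plin1 were added after the data were seen. On simulated counts for 17059 genes the model recovered 68, 80, 94 and 96% of genes changed 1.3-, 1.5-, 2- and 4-fold in the mean CBD effect, and 3.98% of its calls were false. The simulated counts were drawn independently for each gene, with no cue effect and no transcripts of other tissues shared within a library. These rates therefore need not hold for the real libraries. Some genes, among them Ttr and those of proteins encoded by mitochondrial DNA, are not reported here.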

Additional observations from a re-analysis of the deposited data

Results flagged for a closer look

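Among the 80 named genes and their 320 groups of 8 libraries, 31 groups held a library that lay farther from its nearest neighbour on the log2 scale than Dixon's 95% critical value allows, in 27 genes and 13 libraries. Chance flags about 1 in 20 groups. No explanation was tested for any of these values.

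Vehicle anxiety-cue library 5 held 11 of the 31. Genes of medium spiny neurons were low there: Drd1 was at 94.8 CPM (next library 276), Drd2 at 54.0 (next 163), Adora2a at 79.3 (next 291), Penk at 216 (next 583) and Pdyn at 114 (next 311). Mgll was also low at 109 CPM (next 191). High in the same library were Slc17a6 at 45.7 CPM (next 5.18), Prlr at 7.82 (next 1.77), Gpx3 at 46.2 (next 18.0), Mfng at 10.5 (next 5.19) and Cnr1 at 111 (next 65.3).

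CBD neutral-cue library 6, the library with Slc17a7 at 938 CPM, held 7. High there were Cck at 267 CPM (next 30.0), Sv2b at 380 (next 76.5), Cnr1 at 284 (next 67.8), Fos at 36.9 (next 15.9) and Faah at 61.0 (next 45.8). Low were Mbp at 1472 CPM (next 2327) and Olig2 at 28.6 (next 40.3).

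Vehicle neutral-cue library 6 was low in Vtn at 8.08 CPM and in Faah at 30.3. CBD anxiety-cue library 3 was high in Slc17a7 at 58.9 CPM (next 5.89) and in Cck at 15.2. The other 9 libraries held 1 each. The high values were Hsd17b13 at 3.18 CPM in vehicle anxiety-cue library 4, Pkp1 at 3.12 in CBD neutral-cue library 4, Stard5 at 14.7 (next 8.59) in CBD neutral-cue library 3, Ndufa12 at 54.6 in CBD neutral-cue library 7, Pmvk at 43.9 in vehicle neutral-cue library 4 and Vtn at 25.4 in CBD anxiety-cue library 4. The low values were Apol3 at 0.481 CPM in vehicle neutral-cue library 3, Ptges at 0.0762 in CBD anxiety-cue library 8 and Mrps2 at 38.1 in vehicle neutral-cue library 2.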

How the results depend on the processing

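Single removals gave 0 to 61 called genes for the mean effect, 798 to 1918 genes at an unadjusted p under 0.05, 663 to 1757 of these with the same sign, 8 to 53 genes at that p under each cue with the same sign and 14 to 212 with opposite signs, and 0 to 10 called for the interaction. DESeq2 called 13 genes for the mean effect and 11 for the interaction. Under the other settings 0 were called for the mean effect, and for the interaction 0 except for 1475 without libraries high in Plin1. In the order of genes at an unadjusted p under 0.05 (1240), those with the same sign (1075), same sign under each cue (13) and opposite signs (26), the counts were 2239, 2004, 44 and 72 without a filter on low counts, which tested 28920 genes. With composition covariates the first 3 were 388, 377 and 5. With hepatocyte and adipocyte covariates the counts were 646, 587 and, with opposite signs, 9, and with all covariates 441, 423, 6 and 9. Without libraries high in Alb they were 475, 416, 3 and 50. Without those high in Plin1 they were 2643, 1429, 28 and 205, and without either 413, 321, 8 and 250. voom gave 31 with the same and 309 with opposite signs, and 20 shared a sign without libraries high in Slc17a6 or Slc17a7. Apart from the filter, the cause of these differences was not tested. Of the 1075 genes, 332 (30.9%) were also in the count with hepatocyte and adipocyte covariates and 235 (21.9%) in that without libraries high in Alb.

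Of 29 list medians with 1322 alternative values, 1318 moved by less than the spread between libraries. The exceptions were the hepatocyte median, -0.206 without libraries high in Alb or Plin1, and the adipocyte median, -0.857 with composition covariates, -0.105 without libraries high in Plin1 and 0.0671 without those high in Alb or Plin1. This spread is a loose measure, since a median can turn sign within it. For medium spiny neuron markers the SD between libraries of the list's mean level was 0.562, beside a median of 0.23. The sign turned in 11 of 46 alternatives for the beta oxidation median and in 8 of 44 for the choroid plexus and ependymal median. Of 3635 values for the 80 named genes, 63 turned sign, in 32 genes. Among them 39 belonged to genes whose unadjusted p with all libraries was not under 0.05: 9 with composition covariates, 8 with all covariates, and at most 5 in any other setting. The other 24 follow. Without libraries high in Alb or Plin1 these were Cyp2a3 (-0.043), Hpx (-0.608), Mat1a (-0.544), Uox (-1.06), Azgp1 (-0.729), Alb (-0.254), Adipoq (0.315), Plin1 (0.111) and Aoc3 (0.292). Without those high in Alb they were Hpx (-0.154), Uox (-0.357) and Azgp1 (-0.251), and without those high in Plin1 Aoc3 (0.103) and Pparg (0.577). Hepatocyte and adipocyte covariates turned Uox (-0.0792), Azgp1 (-0.00521) and Pparg (0.165). Composition covariates turned Cck (-0.00872) and Sv2b (-0.0911), and all covariates turned Pparg (0.385), Gpx3 (0.000936), Cck (-0.0531), Sv2b (-0.0338) and Olig2 (0.000966).

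No paired analysis was possible because library numbers follow the order of deposition and the labels tie no library of 1 group to a library of another. The additive model gives no value under each cue, and genes of a covariate list have no value where that list is a covariate. Scarce genes such as Gp1ba, with 1 to 16 reads per library, are limited by depth.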

Other observations

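The following genes were chosen after their values were seen, as those with small p-values once tissue markers were in the model; edgeR called 0 genes in these fits, the smallest adjusted p being 0.955 with the hepatocyte and adipocyte covariates and 0.998 with all covariates. With the hepatocyte and adipocyte covariates, Kcnn2, a calcium-activated potassium channel that sets neuronal afterhyperpolarisation, was at 0.27 on the log2 scale, higher with CBD under the neutral (0.41) and the anxiety cue (0.12). Pbld1 was at -1.07 (neutral cue -1.26, anxiety cue -0.88), and Arid3a, a DNA-binding protein, at 0.31. Ins2, an insulin gene, was at -0.49, and Zfp438 at -0.28.

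With all covariates, Gp1ba was at 1.16, Pbld1 at -0.92, Arid3a at 0.33 and Ins2 at -0.44. Socs1, an inhibitor of cytokine signalling, was at 0.73. Trpv1, the capsaicin receptor through which CBD has been reported to act, was at 0.44, with 0.43 under the neutral and 0.46 under the anxiety cue. Ppp1r3c was at -0.19 and Zfp438 at -0.24.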
